A study of Mus musculus with 157 samples.

Results

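Transcripts of 6 C-type lectin receptors (Clec12a, Clec4e, Clec4d, Clec4n, Clec5a and Clec7a), of the tyrosine kinase Syk and of the adaptor Card9 were followed in macrophages grown from mouse bone marrow and given crystals or other particles. These 8 genes were chosen by symbol, out of 24940 genes listed in each of 8 expression tables. Every one of the 8 was listed in every table and passed the filter on low values in all 8 experiments.

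C-type lectin receptors are surface proteins of myeloid cells that bind sugars, glycolipids, fungal cell walls or material from dead cells. Clec4e, Clec4d and Clec4n pass the signal through the immunoreceptor tyrosine-based activation motif (ITAM) of the adaptor Fcer1g, Clec5a does so through Tyrobp, and Clec7a carries a shortened form of that motif itself. The phosphorylated motif recruits Syk, and Syk signals through Card9, Bcl10 and Malt1 to NF-kB. Clec12a carries an inhibitory motif and, in mice, is a known receptor for uric acid crystals that restrains activation.

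RNA sequencing covered 115 libraries in 8 experiments, each with its own table. Cells of C57BL/6 mice and of the Tfeb, Bhlhe40 and Bhlhe41 mutants were grown with 16 ng/mL M-CSF in DMEM. The labels do not name the Tfe3 mice in that protocol. For the Ampka1 experiment, mutant and congenic control marrow from mice 7 to 8 weeks old was grown with 5 ng/mL M-CSF in RPMI. Particles were given at 250 µg/mL and controls received PBS. The time course held monosodium urate crystals (MSUc) and PBS at 10 min, 30 min, 1 h, 2 h and 5 h, with 2 libraries each. The particle experiment held MSUc, calcium pyrophosphate dihydrate crystals (CPPD), silica nanoparticles, aluminium hydroxide (alum) and PBS, with 2 libraries for silica and alum and 3 for the others. The labels also list an alum replicate 3, to which no column of expression values was matched. The genotype experiments compared Tfe3KO with Tfe3WT cells (MSUc, CPPD, silica and PBS), TfebTg with TfebWT, Ampka1KO with Ampka1WT, and Bhlhe40KO and Bhlhe41KO with WT (MSUc and PBS each). The drug experiments compared SGC0946, an inhibitor of the histone methyltransferase DOT1L given at 1 µM from day 0, and metformin, added a day after plating, with their vehicle groups, again with MSUc and PBS. The promoter of the Tfeb transgene, the exons deleted in the knockouts, the dose of metformin and the exposure times outside the time course are not given in the labels.

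Each library held 2118570 to 22114316 reads on the listed transcripts (median 10115135). Members had between 9 reads (Clec4n, PBS 30 min replicate 1) and 31470 reads (Clec4e, Tfe3WT CPPD replicate 2) per library. Of the targeted genes, Tfeb read 201 to 299 TPM (a level scaled for transcript length and library total) in TfebTg and 25.5 to 30.7 TPM in TfebWT cells with MSUc, and Bhlhe40 read 10.7 to 17.1 TPM in Bhlhe40KO and 287 to 313 TPM in WT cells with MSUc. Bhlhe41 read 49.5 to 50.3 TPM in Bhlhe41KO and 90.1 to 94.9 TPM in WT cells with MSUc, but 46.3 to 49.8 TPM in Bhlhe41KO and 49.8 to 55.9 TPM in WT cells with PBS. Prkaa1, the gene of AMPK alpha 1, was not lower in the libraries labelled Ampka1KO, at 26.5 to 31.0 TPM against 21.2 to 23.3 TPM in Ampka1WT cells with MSUc. Tfe3 read 66.7 to 70.0 TPM in the libraries labelled Tfe3KO and 94.2 to 104 TPM in Tfe3WT cells with PBS, but 84.9 to 87.3 TPM in the libraries labelled Tfe3KO and 79.7 to 83.3 TPM in Tfe3WT cells with MSUc. It read 85.4 to 97.7 TPM in the libraries labelled Tfe3KO and 98.4 to 108 TPM in Tfe3WT cells with CPPD, and 31.1 to 43.2 TPM in the libraries labelled Tfe3KO and 52.3 to 57.8 TPM in Tfe3WT cells with silica. Reads outside a deleted part do not check a label, so the values of Prkaa1, Tfe3 and Bhlhe41 neither support nor contradict those knockouts. Bhlhe40 was far lower under the label Bhlhe40KO also with PBS, at 5.59 to 6.92 TPM against 57.8 to 76.1 TPM in WT cells. The titles and the genotype entries disagreed for 12 Tfe3WT libraries, whose entries read Tfe3KO, and the treatment entry of TfebWT MSUc replicate 3 read PBS. Titles were followed in both cases. The 8 macrophage markers were present in every group. The libraries labelled Ampka1KO stood apart in markers of other cells, given with their results.

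Levels are TPM, and changes are log2 ratios of TPM + 1 with the standard error (SE) of limma, fitted across all genes. A gene was called, and is said to have risen or fallen, at a two-sided Benjamini-Hochberg adjusted p under 0.05. The labels do not say that replicates came from separate animals or cultures, so p-values measure the spread between these libraries. In RNA from whole cultures, fewer cells of a type and less RNA per cell cannot be told apart.

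The 6 receptor genes all lie on chromosome 6 of mm10. Clec4n (NM_020001, chr6:123229843-123247024, plus strand), Clec4d (NM_010819, chr6:123262107-123275268, plus) and Clec4e (NM_019948, chr6:123281789-123289871, minus) are neighbours. Clec12a (NM_177686, chr6:129350244-129365303, plus) and Clec7a (NR_132130, chr6:129461591-129472779, minus) lie in a second group, and Clec5a (NM_001038604, chr6:40574898-40585805, minus) stands alone. Syk (NM_001198977) lies at chr13:52583437-52648792 on the plus strand and Card9 (NM_001037747) at chr2:26352312-26359547 on the minus strand. The Clec7a accession is that of a non-coding transcript of the gene, on which the authors listed its value.

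The 250 bases before the start of the listed transcript are shown for the receptor that rose most, its partner and the urate receptor, because Clec4e and Clec4d lie side by side and Clec12a moved unlike both. The sequences are those of RefSeq on GRCm38.p6, 5′ to 3′ on the strand of the gene, and capitals mark the motif matches found. The windows are chr6:123289872-123290121 (minus strand) for Clec4e, chr6:123261857-123262106 (plus) for Clec4d and chr6:129349994-129350243 (plus) for Clec12a.
Clec4e: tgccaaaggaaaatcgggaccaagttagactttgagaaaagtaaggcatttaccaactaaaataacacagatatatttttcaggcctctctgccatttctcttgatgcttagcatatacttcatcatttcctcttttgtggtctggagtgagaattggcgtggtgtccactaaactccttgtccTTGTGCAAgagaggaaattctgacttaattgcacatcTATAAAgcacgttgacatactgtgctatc
Clec4d: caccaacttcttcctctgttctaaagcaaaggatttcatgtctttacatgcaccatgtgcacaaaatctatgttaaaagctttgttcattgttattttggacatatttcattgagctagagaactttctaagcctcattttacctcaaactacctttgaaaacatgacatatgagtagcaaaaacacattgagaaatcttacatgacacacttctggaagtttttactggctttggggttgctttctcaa
Clec12a: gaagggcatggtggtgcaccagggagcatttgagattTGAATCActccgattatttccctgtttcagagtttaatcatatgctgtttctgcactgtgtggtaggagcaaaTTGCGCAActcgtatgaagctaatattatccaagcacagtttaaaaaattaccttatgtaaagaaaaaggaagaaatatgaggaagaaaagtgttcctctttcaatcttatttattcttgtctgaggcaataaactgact
Both strands were searched for a C/EBP motif (TTGCNNAA), an AP-1 motif (TGANTCA), an Ets motif (AGGAAGT), the NF-kB motif, the E-box CACGTG bound by TFE3 and TFEB, the interferon response element and the TATA box (TATAAA). Clec4e held a C/EBP match at -66 to -59, read on the other strand, and a TATA box at -29 to -24. Clec12a held a C/EBP match at -140 to -133 and an AP-1 match at -213 to -207. No match lay in the Clec4d window. Of 32851 RefSeq promoters of this length, 9.56% held the C/EBP motif, 6.75% the AP-1 motif and 12.4% the TATA box. The other motifs were held by 7.69% (Ets), 0.356% (NF-kB), 6.02% (E-box) and 2.98% (interferon element). GC content was 39.6% for Clec4e, 35.2% for Clec4d and 37.2% for Clec12a, where the median promoter had 52.4%. A window of this length with the listed start was found for 6 of the 8 genes, and those of Clec5a, Clec7a and Syk held 1 match together, a TATA box at -209 to -204 of Clec5a.

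By the median over control groups with PBS, Clec4d and Clec12a had the highest levels per transcript length and Clec5a the lowest. Over the 12 control groups with PBS, of which 5 belong to the time course, the median of the group means was 377 TPM for Clec4d, 329 TPM for Clec12a, 129 TPM for Syk, 70.2 TPM for Clec7a, 44.9 TPM for Card9, 34.3 TPM for Clec4e, 13.3 TPM for Clec4n and 8.46 TPM for Clec5a. The tables were made per experiment, so levels across them were not tested. Clec4d and Clec12a overlapped between groups, at 287 to 716 TPM and 46.3 to 402 TPM. The order was not the same in every group: Clec12a was below Clec7a in 4 of the 12 (Ampka1WT, the WT of the Bhlhe experiment and both vehicle groups), and Clec4n below Clec5a in 3, those of the time course at 30 min, 2 h and 5 h. Clec4n, also called Dectin-2 and a receptor of fungal mannan, stood apart in the Ampka1 experiment with 302 ± 23.8 TPM (SD, n = 3) in Ampka1WT cells with PBS. The next highest control group, TfebWT with PBS, had 32.1 ± 2.65 TPM (SD, n = 2). The same Ampka1WT group had the lowest Clec12a of any control group, 46.3 ± 2.68 TPM (SD, n = 3).

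MSUc raised Clec4e and Syk and lowered Card9 from 2 h on, and Clec12a fell at 5 h. None of the 8 genes was called at 10 min or at 30 min, where limma called 0.0567% and 0.68% of 12350 genes tested, and none had an unadjusted p under 0.05 at either time. At 1 h 1 gene was called, where 3.28% of all genes were. This was Clec7a, or Dectin-1, the receptor of fungal beta-glucan, with 88.5 and 102 TPM in MSUc libraries and 58.0 and 69.8 TPM in PBS libraries. The groups did not overlap, and the change was 0.57 ± 0.12 (adjusted p = 0.016). The call was lost without PBS 1 h replicate 1 (adjusted p = 0.209) and without MSUc 1 h replicate 2 (adjusted p = 0.188).

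At 2 h 6 of the 8 genes were called, where 33.5% of all genes were. Clec4e, or Mincle, which binds mycobacterial glycolipid and a nuclear protein set free by dead cells, had 323 and 221 TPM in MSUc libraries and 26.9 and 40.3 TPM in PBS libraries, a rise of 2.98 ± 0.48 (adjusted p = 0.000465). At 1 h its change had been 1.27 ± 0.48 (adjusted p = 0.242). Both MSUc libraries lay above both PBS libraries at 1 h and at 2 h. Syk had 196 and 202 TPM in MSUc libraries at 2 h and 124 and 125 TPM in PBS libraries, a rise of 0.68 ± 0.08 (adjusted p = 6.12e-05). Card9 had 29.4 and 31.4 TPM in MSUc libraries and 47.9 and 51.5 TPM in PBS libraries, and fell by 0.69 ± 0.06 (adjusted p = 4.38e-06). Clec7a rose by 0.59 ± 0.12. Clec4d, the partner of Clec4e, rose by 0.93 ± 0.30 and Clec5a, also called MDL-1, by 1.03 ± 0.34. Both calls were lost without PBS 2 h replicate 1 (adjusted p = 0.185 for Clec4d and 0.208 for Clec5a) and without MSUc 2 h replicate 1 (0.195 and 0.188), and that of Clec5a also without MSUc 2 h replicate 2 (adjusted p = 0.0545).

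**Figure D1:**
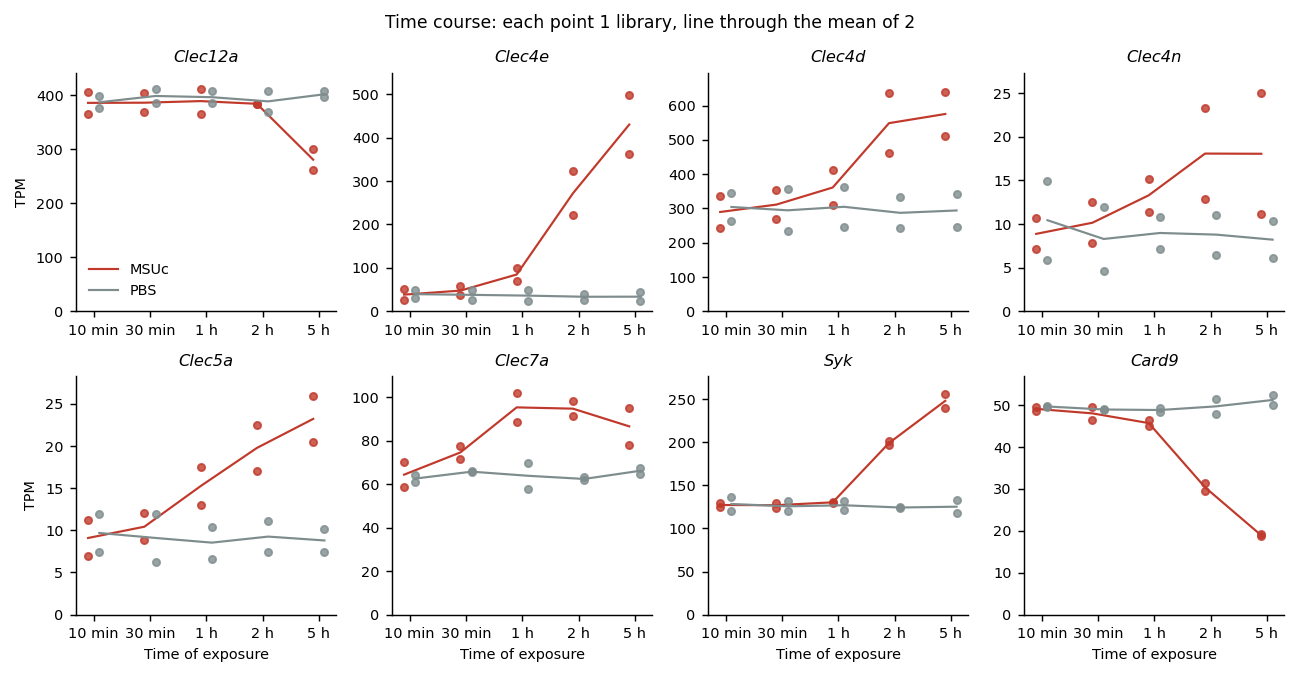
TPM of the 8 genes (y axis, from 0) at 5 times of exposure (x axis) to MSUc (red) or PBS (grey), with each point 1 library and lines through the mean of 2. Clec4e reaches 498 and 362 TPM with MSUc at 5 h, against 23.4 and 44.2 TPM with PBS, while Card9 is at 19.1 and 18.7 TPM, against 52.5 and 50.0 TPM.

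At 5 h 7 of the 8 genes were called, 5 higher and 2 lower. Of all genes 49.3% were called, 16.4% higher and 32.9% lower. The median change of the 8 genes was 0.98, and that of all genes tested was -0.23. Clec4e had 498 and 362 TPM with MSUc and 23.4 and 44.2 TPM with PBS, a rise of 3.68 ± 0.48 (adjusted p = 4.14e-05). Syk had 257 and 240 TPM with MSUc and 118 and 133 TPM with PBS, a rise of 0.98 ± 0.08 (adjusted p = 1.17e-06). Card9 had 19.1 and 18.7 TPM with MSUc and 52.5 and 50.0 TPM with PBS, and fell by 1.39 ± 0.06 (adjusted p = 8.15e-09). The kinase and the adaptor that follows it thus moved in opposite directions in the same libraries. Clec12a had 261 and 300 TPM with MSUc and 407 and 397 TPM with PBS, and fell by 0.52 ± 0.10 (adjusted p = 0.000739). After rescaling the libraries by median-of-ratios factors the change of Clec12a was -0.26 (adjusted p = 0.115). Clec4d rose by 0.98 ± 0.30 (adjusted p = 0.016), Clec5a by 1.31 ± 0.34 (adjusted p = 0.00664) and Clec7a by 0.38 ± 0.12 (adjusted p = 0.0188). These 3 calls were lost without PBS 5 h replicate 1 (adjusted p = 0.123 for Clec4d, 0.0547 for Clec5a and 0.0889 for Clec7a) and without MSUc 5 h replicate 1 (0.103, 0.0514 and 0.181), and that of Clec7a also without PBS 5 h replicate 2 (adjusted p = 0.0509). Clec4n had 25.0 and 11.2 TPM with MSUc and 6.06 and 10.4 TPM with PBS, and was not called at 2 h (0.95 ± 0.53, adjusted p = 0.195) or at 5 h (0.99 ± 0.53, adjusted p = 0.141). With replicate numbers crossed between MSUc and PBS and used as a block, a setting chosen after seeing the data, Clec4n was called at 2 h (adjusted p = 0.00103) and at 5 h (adjusted p = 0.000461), and Clec4e at 1 h (adjusted p = 2.71e-05). The summed level of 8 macrophage markers was 12069 to 13685 TPM with MSUc at 5 h and 17692 to 24796 TPM with PBS. The 10 neutrophil markers summed to 15.3 to 33.4 TPM with MSUc at 5 h and 17.4 to 28.5 TPM with PBS. Of these, 5 reached 1 TPM in the time course, and Ly6g was at 0 throughout.

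All 4 particles raised Clec4e and lowered Card9, but silica raised Clec12a and left Syk without a call, and alum lowered Clec4d and Clec7a. With MSUc 7 of the 8 genes were called, 6 higher and 1 lower, where 63% of 12314 genes were called, 18.1% higher and 44.9% lower. With CPPD 5 were higher and 1 lower (52.4% of all genes called, 16.6% higher and 35.8% lower), with silica 6 higher and 1 lower (68.4%, with 24.4% higher and 43.9% lower) and with alum 3 higher and 3 lower (46.2%, with 27.1% higher and 19.2% lower). The median change of the 8 genes was 0.88 with MSUc, 1.16 with CPPD, 1.44 with silica and -0.07 with alum, and that of all genes was -0.29, -0.20, -0.25 and 0.08. The comparisons share the 3 PBS libraries.

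Clec4e had 553, 423 and 573 TPM with MSUc, 1495, 1466 and 1273 TPM with CPPD, 789 and 982 TPM with silica and 205 and 289 TPM with alum, against 30.5, 32.2 and 41.4 TPM with PBS. No 2 of these 5 groups overlapped. Against PBS the rise was 3.86 ± 0.16 with MSUc, 5.31 ± 0.16 with CPPD, 4.64 ± 0.18 with silica and 2.78 ± 0.18 with alum (adjusted p at most 4.5e-07). Between particles, Clec4e was higher with CPPD than with MSUc by 1.46 (adjusted p = 0.000103) and with silica than with MSUc by 0.78 (adjusted p = 0.00254). It was lower with alum than with MSUc by 1.07 on the log2 scale (adjusted p = 0.000472).

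Clec4d had 1050, 939 and 984 TPM with MSUc, 1231, 1110 and 1013 TPM with CPPD, 1538 and 1884 TPM with silica and 389 and 374 TPM with alum, against 463, 529 and 499 TPM with PBS. It rose by 1.00 ± 0.10 with MSUc, 1.17 ± 0.10 with CPPD and 1.78 ± 0.11 with silica, and fell by 0.38 ± 0.11 with alum (adjusted p = 0.0143). The alum call was lost without PBS replicate 2 (adjusted p = 0.0518) and without alum replicate 2 (adjusted p = 0.0855). Clec4d sits beside Clec4e in the genome and its protein pairs with Clec4e, but with alum their transcripts moved apart. Clec4n had 33.6, 37.3 and 40.7 TPM with MSUc, 56.3, 60.015 and 56.3 TPM with CPPD, 49.3 and 62.2 TPM with silica and 20.4 and 16.9 TPM with alum, against 19.5, 13.6 and 21.8 TPM with PBS. It rose by 1.01 ± 0.15 with MSUc, 1.63 ± 0.15 with CPPD and 1.57 ± 0.17 with silica, and its change with alum was 0.05 ± 0.17 (adjusted p = 0.852).

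Clec5a, which signals through Tyrobp, had 8.56, 8.76 and 9.47 TPM with MSUc, 23.1, 22.4 and 19.5 TPM with CPPD, 20.8 and 30.045 TPM with silica and 6.25 and 9.28 TPM with alum, against 3.41, 5.87 and 5.64 TPM with PBS. It rose by 0.76 ± 0.19 with MSUc, 1.95 ± 0.19 with CPPD, 2.15 ± 0.21 with silica and 0.56 ± 0.21 with alum. The alum call (adjusted p = 0.048) was lost without PBS replicate 1 (adjusted p = 0.164), without alum replicate 2 (adjusted p = 0.381) and after rescaling (adjusted p = 0.139). CPPD and silica libraries lay above all others. Clec7a had 116, 96.0 and 96.8 TPM with MSUc, 88.5, 73.7 and 71.2 TPM with CPPD, 126 and 147 TPM with silica and 50.1 and 48.8 TPM with alum, against 74.1, 68.3 and 80.3 TPM with PBS. It rose by 0.46 ± 0.11 with MSUc and 0.87 ± 0.12 with silica, fell by 0.57 ± 0.12 with alum (adjusted p = 0.0025), and changed by 0.06 ± 0.11 with CPPD (adjusted p = 0.66).

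Clec12a had 555 and 807 TPM with silica, above every other library: 232, 231 and 238 TPM with MSUc, 325, 294 and 288 TPM with CPPD and 236 and 242 TPM with alum, against 264, 278 and 272 TPM with PBS. It rose by 1.30 ± 0.13 with silica (adjusted p = 3.75e-06) and changed by -0.21 ± 0.11 with MSUc (adjusted p = 0.115), 0.16 ± 0.11 with CPPD (adjusted p = 0.266) and -0.18 ± 0.13 with alum (adjusted p = 0.266). After rescaling, the change with CPPD was 0.39 (adjusted p = 0.0406). Syk had 286, 301 and 294 TPM with MSUc, 274, 313 and 290 TPM with CPPD, 142 and 98.0 TPM with silica and 287 and 335 TPM with alum, against 127, 124 and 140 TPM with PBS. It rose by 1.17 ± 0.12 with MSUc, 1.16 ± 0.12 with CPPD and 1.25 ± 0.13 with alum, and changed by -0.14 ± 0.13 with silica (adjusted p = 0.378). Without silica replicate 1 its change with silica was -0.40 (adjusted p = 0.00682). Card9 had 15.5, 16.3 and 15.2 TPM with MSUc, 21.4, 21.3 and 21.8 TPM with CPPD, 12.8 and 9.62 TPM with silica and 20.5 and 25.2 TPM with alum, against 40.5, 32.6 and 39.9 TPM with PBS. It fell by 1.21 ± 0.12 with MSUc, 0.78 ± 0.12 with CPPD, 1.67 ± 0.13 with silica and 0.70 ± 0.13 with alum.

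**Figure D2:**
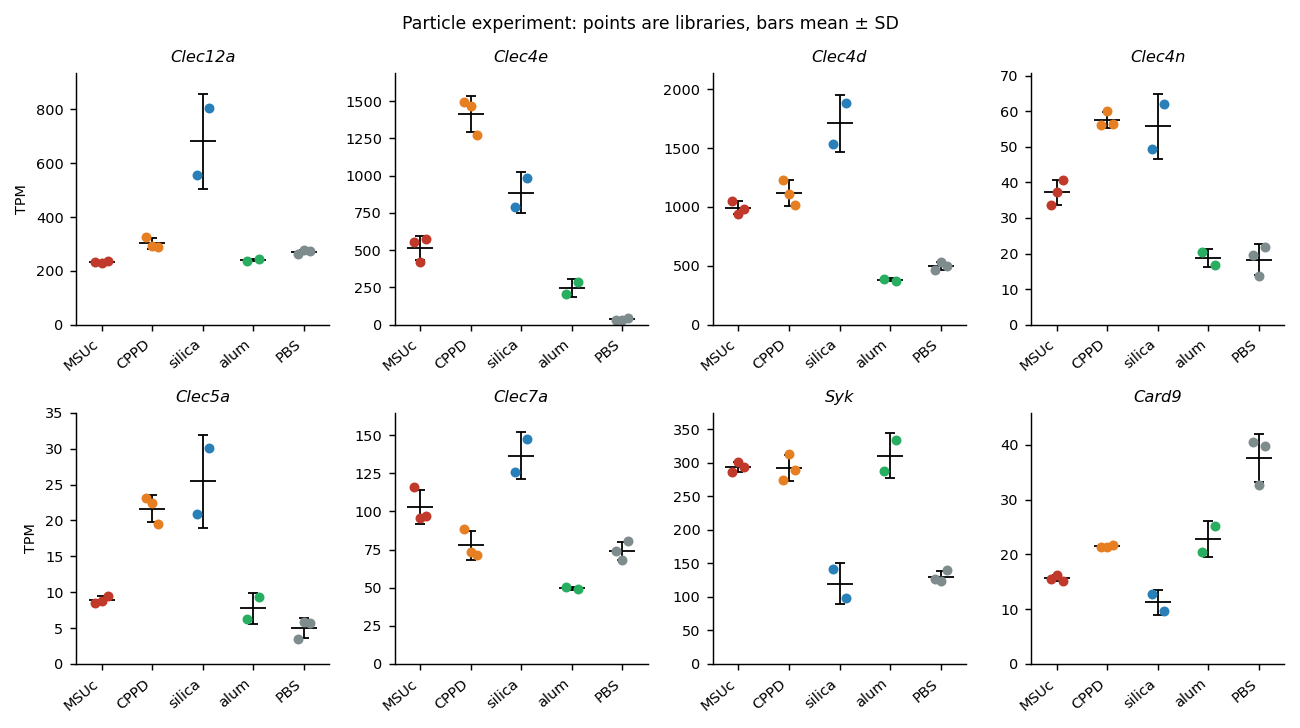
TPM of the 8 genes (y axis, from 0) in the particle experiment by particle (x axis), with points for libraries and bars for mean ± SD. Silica is highest for Clec12a (555 and 807 TPM), and CPPD is highest for Clec4e (1273 to 1495 TPM). For Syk, silica (142 and 98.0 TPM) is below the other particles and overlaps PBS (124 to 140 TPM).

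Set directly against MSUc, CPPD changed 6 of the 8 genes (23.6% of all genes), silica 8 (63.7%) and alum 5 (53.3%). Silica over MSUc was higher by 1.51 for Clec12a and lower by 1.31 on the log2 scale for Syk (adjusted p = 2.36e-06 and 7.94e-06). Clec4d, Clec4n, Clec5a and Clec7a were also higher with silica, by 0.41 to 1.39, and Card9 was lower by 0.46. Without silica replicate 2 the calls of Card9 (adjusted p = 0.135), Clec7a (0.115) and Clec4n (0.133) were lost. Alum was lower than MSUc for Clec4d, Clec4n and Clec7a, by 0.96 to 1.37 on the log2 scale, and higher for Card9 by 0.51, a call lost after rescaling (adjusted p = 0.548) and without alum replicate 2 (adjusted p = 0.0913). For Syk, alum minus MSUc was 0.08 ± 0.13 (adjusted p = 0.648), but after rescaling -0.36 (adjusted p = 0.0215). CPPD over MSUc was higher for Clec4n by 0.62 and Clec5a by 1.19 and lower for Clec7a by 0.40. The CPPD differences of Clec12a (0.37) and Card9 (0.43) were called only with all 6 libraries, with adjusted p of 0.0525 to 0.116 and 0.0513 to 0.0664 when any library was left out. That of Clec7a was lost without MSUc replicate 1 (adjusted p = 0.082), CPPD replicate 2 (0.0698) or CPPD replicate 3 (0.0795). Among markers of other cells, the summed level of 10 neutrophil markers was 266 to 368 TPM with silica, 59.6 to 128 TPM with MSUc, 38.4 to 72.0 TPM with CPPD and 59.0 to 98.6 TPM with alum, against 51.5 to 116 TPM with PBS. Ly6g was at 0 in every group but silica. The 8 macrophage markers summed to 34496 to 39244 TPM with silica and 16209 to 21564 TPM with the other particles, against 27933 to 30692 TPM with PBS. The part of these cells in the silica values was not tested.

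The Tfe3WT cells, which had 3 libraries per particle, gave the same calls for silica as the particle experiment in all 8 genes. With MSUc 6 of the 8 genes were called (61.6% of 12796 genes), with CPPD 6 (60.2%) and with silica 7 (65.8%). Clec12a had 430, 470 and 433 TPM with silica and 242, 313 and 241 TPM with PBS, and rose by 0.75 ± 0.11 (adjusted p = 5.12e-06). Syk had 156, 150 and 154 TPM with silica and 157, 145 and 161 TPM with PBS, a change of -0.01 ± 0.06 (adjusted p = 0.922). Silica and PBS libraries overlapped for Syk and did not overlap for Clec12a. Markers of other cells were again higher with silica: 10 neutrophil markers summed to 1447 to 1966 TPM with silica and 298 to 571 TPM with PBS, and 4 stromal markers to 462 to 510 TPM with silica and 302 to 341 TPM with PBS. The 6 dendritic cell markers summed to 22.1 to 22.2 TPM with silica and 4.02 to 8.12 TPM with PBS, and the 8 macrophage markers to 26290 to 30049 TPM with silica and 21008 to 25062 TPM with PBS. Their part in the member values was not tested. Clec4e rose by 3.66 ± 0.26 with MSUc, 5.47 ± 0.26 with CPPD and 4.70 ± 0.26 with silica. Clec5a rose by 0.58 ± 0.18 with MSUc, a call lost without PBS replicate 1 (adjusted p = 0.06) and without MSUc replicate 2 (adjusted p = 0.0517). The change of Clec12a with MSUc was -0.25 ± 0.11 (adjusted p = 0.051), and it was called without PBS replicate 1 (-0.31, adjusted p = 0.0335), PBS replicate 3 (-0.32, 0.031) or MSUc replicate 1 (-0.31, 0.0384).

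Across the control cells of all 8 experiments, Clec4e rose with MSUc in 8 of 8 and Card9 fell in 8 of 8. The rise of Clec4e ran between 1.76 in TfebWT cells and 3.86 in the particle experiment, 3.39-fold to 14.5-fold on the TPM + 1 scale. Card9 changed by -0.999 to -1.72. Syk and Clec5a rose in 7 of 8 experiments each, and the exceptions were the vehicle cells of the metformin experiment for Syk (0.13 ± 0.08, adjusted p = 0.209, and after rescaling 0.28, adjusted p = 0.00558) and TfebWT for Clec5a (-0.30 ± 0.13, adjusted p = 0.0819). Clec4d rose in 6 experiments and Clec4n in 5. After rescaling Clec4d was also called in TfebWT (0.57) and Ampka1WT cells (0.52), Clec4n in the SGC0946 vehicle cells (0.53) and Clec7a in Tfe3WT cells (0.49). Clec7a rose in 6 and fell in TfebWT cells (-0.30 ± 0.11, adjusted p = 0.0472), a call lost when any of the 5 libraries was left out (adjusted p of 0.0531 to 0.29) and after rescaling (change -0.004, adjusted p = 0.983).

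Clec12a had no common direction. It fell at 5 h of the time course, rose in Ampka1WT cells (1.26 ± 0.13), the WT of the Bhlhe experiment (0.34 ± 0.07) and the metformin vehicle cells (0.52 ± 0.12), and was not called in the other 4. In the WT of the Bhlhe experiment it had 211 and 223 TPM with MSUc and 181 and 162 TPM with PBS. In the metformin vehicle cells it had 170, 169 and 191 TPM with MSUc and 121, 120 and 128 TPM with PBS. Per the labels, the time course, the WT of the Bhlhe experiment and the metformin vehicle cells shared the same medium and M-CSF dose. Clec12a was thus called lower and higher in the same labelled medium. The fall in the time course was not called after rescaling (-0.26, adjusted p = 0.115). Ampka1WT cells, with the largest rise, had a different medium and dose, whose part was not tested. Exposure times are given only for the time course, so the direction of Clec12a and exposure time cannot be told apart. In these control comparisons 45.5% of 11991 genes were called in TfebWT cells, 63.7% of 12834 in Ampka1WT cells, 60.5% of 12142 in the WT of the Bhlhe experiment, 55.4% of 12324 in the SGC0946 vehicle cells and 53.9% of 12514 in the metformin vehicle cells. The members called numbered 5, 7, 7, 6 and 7 in the same order. The smaller of these calls were lost with 1 library left out: Clec4n in TfebWT cells without PBS replicate 2 (adjusted p = 0.0624), Clec4n in Ampka1WT cells without PBS replicate 1 (0.0608) or MSUc replicate 3 (0.0518), and Clec4d in the WT of the Bhlhe experiment without PBS replicate 1 (0.0617), PBS replicate 2 (0.124) or MSUc replicate 1 (0.191). In the SGC0946 vehicle cells that of Clec7a was lost without PBS replicate 2 (0.0827), PBS replicate 3 (0.0816), MSUc replicate 1 (0.0536) or MSUc replicate 3 (0.102). In the metformin vehicle cells that of Clec4d was lost without PBS replicate 2 (0.0918) or MSUc replicate 1 (0.0698), and that of Clec4n without PBS replicate 1 (0.116), PBS replicate 3 (0.0854), MSUc replicate 2 (0.108) or MSUc replicate 3 (0.125).

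**Figure D3:**
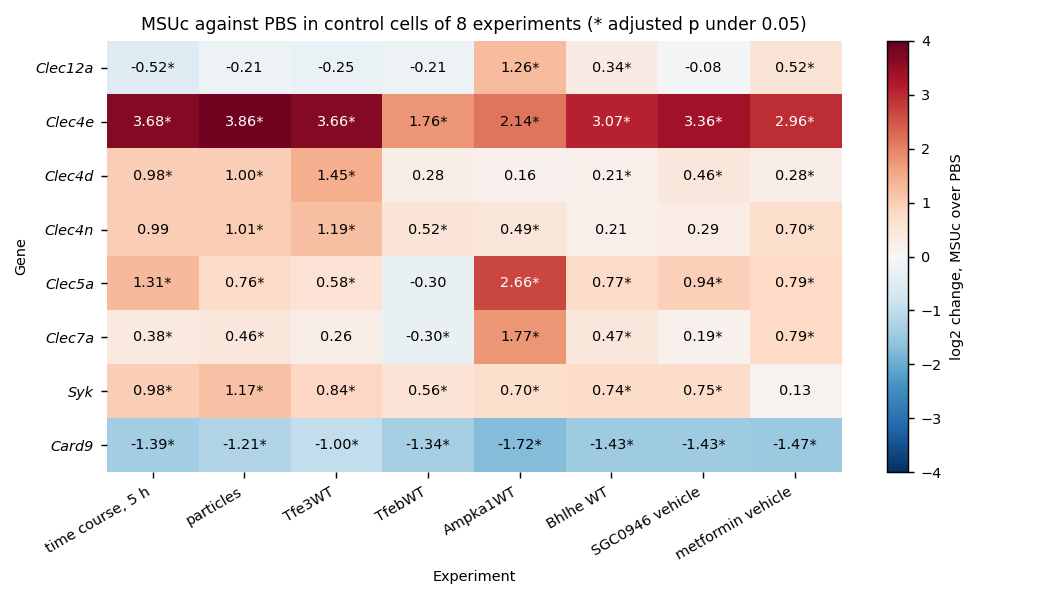
Log2 change of TPM + 1 with MSUc over PBS (colour and printed value) for the 8 genes (rows) in the control cells of 8 experiments (columns), where a star marks an adjusted p under 0.05. Clec4e is red in every column (1.76 to 3.86), Card9 is blue in every column (-0.999 to -1.72), and Clec12a changes sign between columns (-0.52 to 1.26).

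Tfe3, Bhlhe40 and Bhlhe41 are transcription factors of the helix-loop-helix family. Between libraries labelled as knockouts of each and their WT, 0 or 1 of the 8 genes was called in each comparison, where at most 12.5% of all genes were. In the libraries labelled Tfe3KO against Tfe3WT, no member was called with PBS (2.37% of all genes, unadjusted p under 0.05 for 1 member) or with CPPD (8.1%, unadjusted for 2). With MSUc 1 member was called (10.7%): Clec7a had 82.5, 67.3 and 78.0 TPM in the libraries labelled Tfe3KO and 123, 99.2 and 105 TPM in Tfe3WT libraries, a difference of -0.52 ± 0.12 (adjusted p = 0.00909). The groups did not overlap. The call was lost without Tfe3WT MSUc replicate 1 (adjusted p = 0.06) and without Tfe3KO MSUc replicate 2 (adjusted p = 0.0607). With PBS the Clec7a difference was -0.33 ± 0.12 (adjusted p = 0.193), called without Tfe3KO PBS replicate 1 (-0.46, adjusted p = 0.0441). With silica 1 member was called (12.5%): Syk had 134, 142 and 120 TPM in the libraries labelled Tfe3KO and 156, 150 and 154 TPM in Tfe3WT libraries, a difference of -0.22 ± 0.06 (adjusted p = 0.0201). That call was lost without Tfe3WT silica replicate 1 (adjusted p = 0.078) or replicate 3 (0.0535), without Tfe3KO silica replicate 3 (0.125) and after rescaling (0.208). Without Tfe3WT silica replicate 3, Clec4d was called, 0.42 higher in the libraries labelled Tfe3KO (adjusted p = 0.0439). The responses to MSUc, CPPD and silica differed between these labels for no member (1.73%, 0.93% and 1.52% of all genes, with 1, 1 and 2 members at an unadjusted p under 0.05). The 10 neutrophil markers summed to 294 to 449 TPM in the libraries labelled Tfe3KO and 530 to 697 TPM in Tfe3WT libraries with MSUc, and to 970 to 1294 TPM in the libraries labelled Tfe3KO and 1447 to 1966 TPM in Tfe3WT libraries with silica. The 4 stromal markers summed to 175 to 452 TPM in the libraries labelled Tfe3KO and 462 to 510 TPM in Tfe3WT libraries with silica. Their part in the member values was not tested.

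No member was called between Bhlhe40KO or Bhlhe41KO and WT libraries. For Bhlhe40KO against WT, 0.0824% of all genes were called with PBS, 0.0165% with MSUc and 0.00824% for the response, with 1, 2 and 1 members at an unadjusted p under 0.05. For Bhlhe41KO against WT these shares were 2.76%, 1.33% and 0.132%, with 2, 2 and 1 members. The member nearest to a call was Syk in Bhlhe41KO cells with PBS, which had 136 and 128 TPM in Bhlhe41KO libraries and 156 and 159 TPM in WT libraries (-0.26 ± 0.06, adjusted p = 0.0662), and which was called after rescaling (-0.30, adjusted p = 0.0477). Clec4e with MSUc had 166 and 170 TPM in Bhlhe40KO, 196 and 141 TPM in Bhlhe41KO and 164 and 171 TPM in WT libraries. The neutrophil markers summed to 232 to 239 TPM in Bhlhe41KO and 62.5 to 69.9 TPM in WT libraries with MSUc, and to 151 to 166 TPM in Bhlhe41KO and 45.5 to 49.7 TPM in WT libraries with PBS, and their part was not tested.

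With the Tfeb transgene, Clec4e was higher and Clec4n lower under MSUc. Of the 8 genes 2 were called (3.48% of all genes). Clec4e had 857, 647 and 743 TPM in TfebTg and 427, 399 and 394 TPM in TfebWT libraries with MSUc, a difference of 0.87 ± 0.11 (adjusted p = 0.00153). Clec4n had 25.5, 28.0 and 25.9 TPM in TfebTg and 46.6, 45.3 and 47.5 TPM in TfebWT libraries, a difference of -0.79 ± 0.11 (adjusted p = 0.00299). Neither pair of groups overlapped. With PBS no member was called (0.717% of all genes, 4 members at an unadjusted p under 0.05). Clec4e then had 123, 104 and 136 TPM in TfebTg and 127 and 112 TPM in TfebWT libraries, and the Clec4n difference was -0.60 ± 0.13 (adjusted p = 0.0651), called without TfebTg PBS replicate 3 (-0.74, adjusted p = 0.0139). The response to MSUc differed for no member (0.1% of all genes, 2 members at an unadjusted p under 0.05), with 0.86 ± 0.17 for Clec4e (adjusted p = 0.159). Markers differed with the transgene under MSUc: the macrophage markers summed to 10839 to 11084 TPM in TfebTg and 12038 to 12501 TPM in TfebWT libraries, 6 mast cell markers to 26.6 to 29.3 TPM in TfebTg and 6.49 to 7.48 TPM in TfebWT libraries, and the stromal markers to 4.45 to 5.01 TPM in TfebTg and 8.75 to 14.6 TPM in TfebWT libraries. Of the mast cell markers, Ms4a2, Fcer1a and Mcpt4 were at 0 in the whole experiment. Cpa3 and Tpsb2 were also at 0 in TfebWT libraries with MSUc, and only 1 of the 6 reached 1 TPM in any library. The part of these cells in the member values was not tested. TfebWT MSUc replicate 3 has conflicting labels. Its Clec4e (394 TPM), Syk (225 TPM) and Card9 (15.4 TPM) lay near the other MSUc libraries and outside the PBS libraries, and with it grouped as PBS no member was called in these comparisons.

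In the Ampka1 experiment, MSUc raised 6 of the genes in Ampka1WT cells, and all 8 were lower in the libraries labelled Ampka1KO with MSUc. Of all genes 71.8% were called in that comparison, 51.6% higher and 20.2% lower, so the 8 genes lay on the side of the smaller share. The median difference of the 8 was -1.39 and that of all genes 0.39. Rescaling moved the all-gene median by -0.45 and left the 8 calls in place. With PBS 6 of the 8 were called (47.7% of all genes), and the response to MSUc differed for 7 (50.6%, of which 34.7% higher and 15.9% lower), all of them lower in the libraries labelled Ampka1KO.

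Syk had 48.3, 48.1 and 46.6 TPM in Ampka1KO and 191, 200 and 195 TPM in Ampka1WT libraries with MSUc (-2.01 ± 0.06, adjusted p = 4.48e-10). With PBS it had 101, 95.0 and 102 TPM in Ampka1KO and 115, 121 and 125 TPM in Ampka1WT libraries (-0.27 ± 0.06, adjusted p = 0.00215). MSUc libraries thus lay below PBS libraries under the label Ampka1KO and above them in Ampka1WT, and the responses differed by -1.74 ± 0.08 (adjusted p = 1.27e-07). Clec4d had 297, 359 and 345 TPM in Ampka1KO and 729, 838 and 835 TPM in Ampka1WT libraries with MSUc, and 829, 711 and 730 TPM in Ampka1KO and 765, 720 and 664 TPM in Ampka1WT libraries with PBS. Its difference was -1.26 ± 0.10 with MSUc (adjusted p = 2.8e-07) and 0.08 ± 0.10 with PBS (adjusted p = 0.539), and the responses differed by -1.34 ± 0.14 (adjusted p = 2.12e-05).

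Clec5a was high without MSUc in the libraries labelled Ampka1KO. With PBS it had 22.1, 19.1 and 23.6 TPM in Ampka1KO and 5.83, 5.70 and 6.12 TPM in Ampka1WT libraries (1.71 ± 0.10, adjusted p = 9.17e-08). With MSUc it had 15.4, 15.2 and 17.2 TPM in Ampka1KO and 42.5, 38.9 and 46.3 TPM in Ampka1WT libraries (-1.36 ± 0.10, adjusted p = 1.7e-07). Its difference between the labels had opposite signs in the presence and absence of crystals, and the responses differed by -3.07 ± 0.14 (adjusted p = 1.19e-07). Clec4n did likewise, with 0.98 ± 0.16 for PBS (adjusted p = 0.000271), -0.63 ± 0.16 for MSUc (adjusted p = 0.0031) and -1.61 ± 0.22 between the responses (adjusted p = 0.000146). It had 648, 541 and 603 TPM in Ampka1KO and 275, 319 and 312 TPM in Ampka1WT libraries with PBS.

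Clec12a had 23.3, 34.8 and 31.3 TPM in Ampka1KO and 104, 127 and 106 TPM in Ampka1WT libraries with MSUc (-1.90 ± 0.13, adjusted p = 1.13e-07), and 31.4, 28.7 and 27.5 TPM in Ampka1KO and 46.7, 48.7 and 43.4 TPM in Ampka1WT libraries with PBS (-0.65 ± 0.13, adjusted p = 0.00157). Under the label Ampka1KO the MSUc and PBS libraries overlapped. Clec4e had 99.7, 118 and 122 TPM in Ampka1KO and 564, 710 and 853 TPM in Ampka1WT libraries with MSUc (-2.62 ± 0.19, adjusted p = 1.85e-07), and 149, 83.9 and 98.4 TPM in Ampka1KO and 162, 160 and 152 TPM in Ampka1WT libraries with PBS (-0.55 ± 0.19, adjusted p = 0.033). The PBS call of Clec4e was lost without any 1 of 5 of the 6 libraries, with adjusted p of 0.0622 to 0.138, the exception being Ampka1KO replicate 1. Clec7a had 56.6, 85.0 and 84.8 TPM in Ampka1KO and 193, 204 and 204 TPM in Ampka1WT libraries with MSUc (-1.42 ± 0.27), and with PBS 86.7, 37.6 and 39.6 TPM in Ampka1KO and 70.4, 53.5 and 51.7 TPM in Ampka1WT libraries, called without Ampka1KO PBS replicate 1 (-0.58, adjusted p = 0.0218). Card9 was lower by 0.91 ± 0.18 on the log2 scale with MSUc and by 0.74 ± 0.18 with PBS, and its response was the exception (-0.17 ± 0.26, adjusted p = 0.61).

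**Figure D4:**
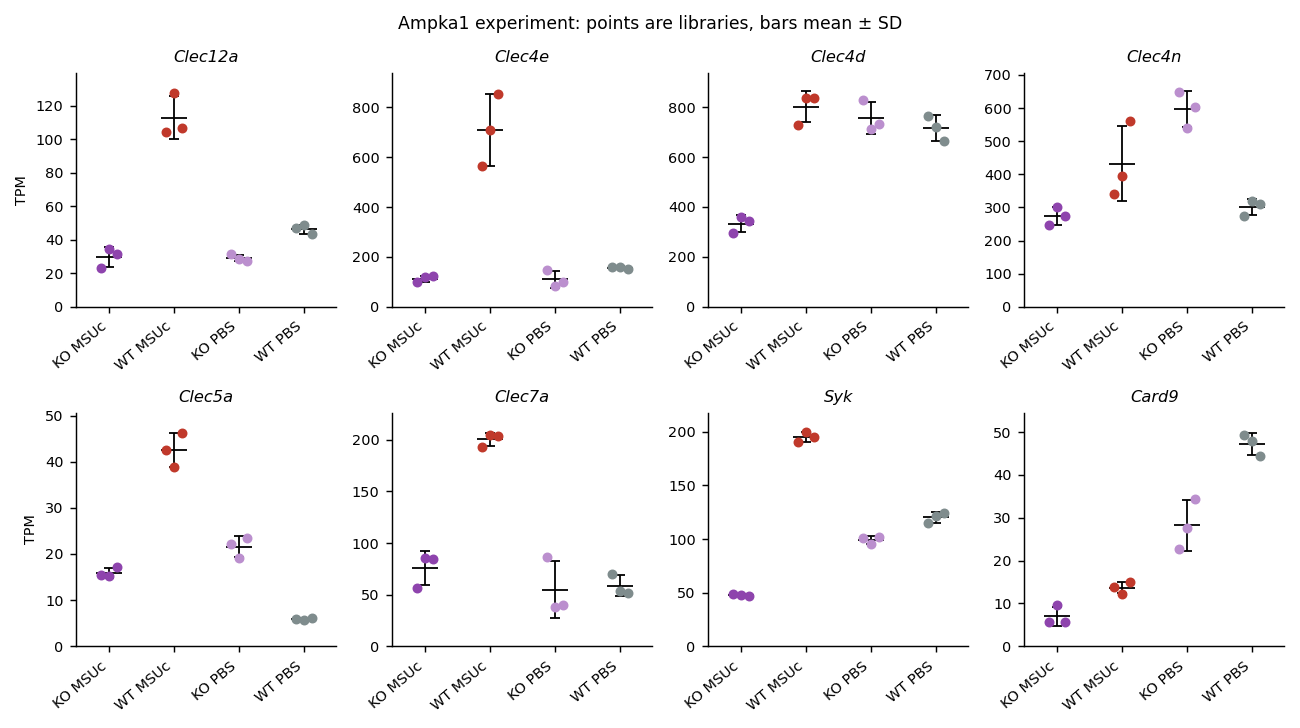
TPM of the 8 genes (y axis, from 0) in libraries labelled Ampka1KO (purple shades) and Ampka1WT (red and grey) with MSUc or PBS (x axis), with points for libraries and bars for mean ± SD. All 8 genes are lower under the label Ampka1KO than in Ampka1WT with MSUc, and Clec5a is higher under that label with PBS (19.1 to 23.6 TPM, against 5.70 to 6.12 TPM).

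Markers of other cells moved with the Ampka1 label. The sum of 4 stromal cell markers was 1300 to 1743 TPM in Ampka1KO and 34.5 to 120 TPM in Ampka1WT libraries with MSUc, and 482 to 800 TPM in Ampka1KO and 41.002 to 77.7 TPM in Ampka1WT libraries with PBS. The sum of 10 neutrophil markers was 429 to 470 TPM in Ampka1KO and 108 to 189 TPM in Ampka1WT libraries with MSUc, and 344 to 445 TPM in Ampka1KO and 110 to 164 TPM in Ampka1WT libraries with PBS. No stromal marker was at 0 in any of the 4 groups. The 8 macrophage markers summed to 7311 to 9573 TPM in Ampka1KO and 24875 to 30161 TPM in Ampka1WT libraries with MSUc, and to 22190 to 24923 TPM in Ampka1KO and 35572 to 39667 TPM in Ampka1WT libraries with PBS. The part of other cells in the member values was not tested.

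Metformin, a biguanide that raises AMPK activity, lowered Clec12a, Clec7a and Clec4d whether or not crystals were present. With PBS 4 of the 8 genes were called (39.5% of all genes) and with MSUc 5 (43.6%). Clec12a had 42.4, 33.7 and 32.0 TPM with metformin and 170, 169 and 191 TPM with vehicle under MSUc (-2.27 ± 0.12, adjusted p = 3.16e-07). Under PBS it had 31.4, 23.5 and 30.2 TPM with metformin and 121, 120 and 128 TPM with vehicle (-2.09 ± 0.12, adjusted p = 1.81e-07). The highest metformin library lay far below the lowest vehicle library in both. Clec7a had 64.1, 102 and 95.3 TPM with metformin and 338, 261 and 304 TPM with vehicle under MSUc (-1.79 ± 0.17), and 46.9, 51.8 and 56.4 TPM with metformin and 191, 142 and 190 TPM with vehicle under PBS (-1.73 ± 0.17). Clec4d was lower by 0.77 ± 0.09 under MSUc and by 1.04 ± 0.09 under PBS. Clec4n was lower under MSUc (-1.07 ± 0.26, adjusted p = 0.00578) and was not called under PBS (-0.59 ± 0.26, adjusted p = 0.0903) unless metformin PBS replicate 2 was left out (-0.79, adjusted p = 0.0413). Syk was lower under MSUc by 0.32 ± 0.08 (adjusted p = 0.00972), a call lost with the compared groups fitted alone (adjusted p = 0.061). Under PBS the Syk difference was -0.18 ± 0.08 (adjusted p = 0.108). It was called after rescaling (-0.26, adjusted p = 0.0129) and with the compared groups alone (adjusted p = 0.0148). The Clec5a difference under MSUc was -0.28 ± 0.12 (adjusted p = 0.0752), called after rescaling (-0.45, adjusted p = 0.00917).

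Clec4e behaved otherwise. Under PBS it had 22.7, 21.9 and 20.7 TPM with metformin and 13.0, 17.6 and 10.6 TPM with vehicle (0.65 ± 0.15, adjusted p = 0.00367), and under MSUc 89.3, 115 and 105 TPM with metformin and 112, 116 and 107 TPM with vehicle (-0.12 ± 0.15, adjusted p = 0.538). The response to MSUc differed for 1 member (12.2% of all genes), Clec4e, by -0.77 ± 0.21 (adjusted p = 0.0298). This call was lost without vehicle PBS replicate 1 or 3, vehicle MSUc replicate 1 or 2, or metformin PBS replicate 1 or 2, with adjusted p of 0.0536 to 0.0715. The 8 macrophage markers summed to 12486 to 15049 TPM with metformin and 18224 to 21434 TPM with vehicle under MSUc, and to 11382 to 12944 TPM with metformin and 23004 to 25839 TPM with vehicle under PBS. The 10 neutrophil markers summed to 25.7 to 85.7 TPM with metformin and 62.5 to 215 TPM with vehicle under MSUc, and to 7.87 to 23.6 TPM with metformin and 40.6 to 101 TPM with vehicle under PBS, with Ly6g at 0 throughout. The 4 stromal markers summed to 99.1 to 222 TPM with metformin and 301 to 402 TPM with vehicle under MSUc. The 6 mast cell markers summed to 10.9 to 19.7 TPM with metformin and 2.46 to 6.04 TPM with vehicle under MSUc, and to 12.1 to 15.8 TPM with metformin and 1.39 to 1.67 TPM with vehicle under PBS. Of these, Mcpt4 and Tpsb2 were at 0 in the whole experiment, and only 2 of the 6 reached 1 TPM in any library. The part of other cells in the member values was not tested.

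SGC0946 raised Clec4n, Clec7a, Clec4d and Clec12a and lowered Syk under MSUc, 5 of the 8 genes (16.6% of all genes). Clec4n had 30.3, 29.1 and 31.4 TPM with SGC0946 and 14.4, 10.3 and 16.8 TPM with vehicle (1.10 ± 0.15, adjusted p = 0.00164). Clec7a had 406, 406 and 416 TPM with SGC0946 and 306, 282 and 340 TPM with vehicle (0.41 ± 0.06, adjusted p = 0.00279). Syk had 266, 268 and 266 TPM with SGC0946 and 329, 325 and 324 TPM with vehicle (-0.29 ± 0.06, adjusted p = 0.00848). None of these groups overlapped. Clec4d was higher by 0.39 ± 0.08 (adjusted p = 0.00889), and Clec12a by 0.34 ± 0.10 (adjusted p = 0.0474). The call of Clec12a was lost without any 1 library other than vehicle MSUc replicate 3 (adjusted p of 0.0806 to 0.135). Under PBS 2 members were called (0.673% of all genes): Clec4n (0.90 ± 0.17, adjusted p = 0.0446), with 23.1 and 19.4 TPM with SGC0946 and 10.8, 11.0 and 10.9 TPM with vehicle, and Clec7a (0.45 ± 0.07, adjusted p = 0.0297), with 367 and 374 TPM with SGC0946 and 283, 265 and 266 TPM with vehicle. Both calls were lost when any 1 of the 5 libraries was left out (adjusted p of 0.1 to 0.43 for Clec4n and 0.0611 to 0.334 for Clec7a). The 6 mast cell markers summed to 4.75 to 4.93 TPM with SGC0946 and 7.55 to 8.59 TPM with vehicle under MSUc. Of these, Ms4a2, Fcer1a, Mcpt4 and Tpsb2 were at 0 in both groups, and Cpa3 was at 0 with SGC0946. The neutrophil markers summed to 18.4 to 23.1 TPM with SGC0946 and 5.03 to 14.7 TPM with vehicle under PBS, with Ly6g at 0 throughout. The part of other cells in the member values was not tested. The response to MSUc differed for no member (0.0325% of all genes, 2 members at an unadjusted p under 0.05).

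Around the 8 genes, Malt1 rose with MSUc. The adaptors that the receptors need fell, with their smallest changes inside the range of the all-gene medians. Malt1, the protease that joins Card9 and Bcl10, had 94.5 ± 10.8 TPM with MSUc at 5 h and 12.03 ± 0.812 TPM with PBS (SD, n = 2 each), a rise of 2.87 ± 0.14 (adjusted p = 1.44e-08). It rose with MSUc in the control cells of all 8 experiments, by 1.78 to 3.03, in the same libraries in which Card9 fell. Bcl10, the third protein of that complex, changed by -0.01 to 0.28 in these 8 comparisons. Tyrobp, the adaptor of Clec5a, fell in all 8, by 0.24 to 0.74 on the log2 scale, and Fcer1g, the adaptor of Clec4e, Clec4d and Clec4n, fell in 6, with changes of -0.62 to -0.25 in all 8. The median change of all genes in these 8 comparisons was -0.30 to -0.16, and rescaling moved it by 0.13 to 0.28. Of all genes, 32.9% were called lower with MSUc at 5 h and 44.9% in the particle experiment. With alum Tyrobp had 578 ± 56.6 TPM (SD, n = 2) and 2221 ± 258 TPM with PBS (SD, n = 3), a change of -1.94 ± 0.11, and Fcer1g had 554 ± 16.8 TPM with alum and 1423 ± 89.0 TPM with PBS, a change of -1.36 ± 0.09. With silica both rose, Tyrobp by 0.31 ± 0.11 and Fcer1g by 0.35 ± 0.09. In the libraries labelled Ampka1KO with MSUc, Malt1 had 16.2 ± 1.52 TPM against 69.5 ± 4.15 TPM in Ampka1WT libraries (SD, n = 3 each), and its response differed by -2.34 ± 0.24 (adjusted p = 2.4e-05). The Malt1 response also differed with metformin, by -1.30 ± 0.18 (adjusted p = 0.00113).

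Counts over 4 lists of related genes are read against the shares of all genes called, given above by direction for each of the 4 comparisons. Of 11 other C-type lectin receptors tested, 1 rose and 4 fell with MSUc at 5 h (median -0.66), and Clec4a3 (-1.74 ± 0.17), Clec4a1 (-1.75 ± 0.23) and Clec2d (-1.12 ± 0.24) were among those that fell, while Ly75, an endocytic receptor, rose (1.18 ± 0.19) to a mean of 1.88 TPM. With silica 3 of the 11 rose, among them the mannose receptor Mrc1 (1.42 ± 0.18), and 1 fell (median 0.40). With CPPD 3 rose and 6 fell, and with alum 2 rose and 6 fell. Of 8 ITAM adaptors and kinases next to the receptors, 1 rose and 2 fell at 5 h. Src rose (2.29 ± 0.24), and Lyn, a kinase of the same family, fell (-0.65 ± 0.13). Src rose by 2.94 ± 0.19 with CPPD.

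Of 17 Syk effectors and proteins of the Card9 complex tested, 3 rose and 5 fell with MSUc at 5 h (median 0.05), 5 rose and 6 fell with CPPD, 4 rose and 8 fell with silica, and 10 rose and 2 fell with alum. At 5 h Pik3cb, a catalytic subunit of phosphoinositide 3-kinase, rose (1.33 ± 0.09) and the kinase Btk fell (-0.84 ± 0.09). With silica Plcg2 (-1.21 ± 0.13) and Pik3cd (-1.78 ± 0.18) fell, and with alum Traf6 (0.97 ± 0.12) and Vav1 (0.83 ± 0.10) rose. Of 12 brakes on ITAM signalling, 2 rose and 6 fell at 5 h, none rose and 7 fell with silica, and 4 rose and 2 fell with alum. The phosphatase Ptpn6, or SHP-1, had 60.1 ± 3.22 TPM with MSUc at 5 h and 220 ± 7.36 TPM with PBS (SD, n = 2 each), a change of -1.85 ± 0.09. Inpp5d, the lipid phosphatase SHIP, changed by -1.54 ± 0.11 at 5 h, -1.68 ± 0.13 with CPPD and -2.17 ± 0.14 with silica. The ubiquitin ligases Cbl (1.23 ± 0.14) and Cblb (1.22 ± 0.14) rose with alum. In the libraries labelled Ampka1KO with MSUc, 14 of the 17 effectors, 6 of the 8 adaptors and kinases and 9 of the 12 brakes were lower, and 2, 1 and 3 were higher. Of 9 other C-type lectin receptors tested there, 5 were lower and 3 higher. Of all genes in that comparison, 20.2% were called lower and 51.6% higher.

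The genes outside the 8 that were most alike to each member were ranked by Pearson's r of log2(TPM + 1), centred within each experiment, over the means of 45 groups and among 8992 genes. The 45 groups share libraries' depth within an experiment, and r is a description. Card9 was most like Bin2 (r = 0.983) and Rps6ka1 (0.982), Clec4e most like Trim13 (0.955) and the inflammatory caspase Casp4 (0.951), and Syk most like Csf2rb, the shared chain of cytokine receptors (0.928), and Cd82 (0.926). Clec5a followed Tmem38b (0.882) and Casp4 (0.879), Clec4d M6pr (0.873) and Cd9 (0.862), and Clec4n Arg2 (0.845) and M6pr (0.834). Clec12a had weaker matches, H3f3b (0.785) and Cd84 (0.783), as did Clec7a, H2-Aa (0.781) and Sat1 (0.778). Within the 8 genes, which that ranking left out, r was 0.911 for Clec4d with Clec4n and 0.832 for Clec12a with Clec7a, above the r of any gene named for these 4. It was 0.800 for Clec4e with Clec5a and -0.774 for Clec4e with Card9.

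Chromatin immunoprecipitation (ChIP-seq) of WT macrophages gave lists, made by the authors, of peaks that MSUc increased (DOT1L, TFE3 and TFEB) or decreased (DOT1L), and of regions gained or reduced in the histone marks H3K27ac and H3K4me3, which mark active and promoter chromatin. Each peak or region is assigned by the authors to its nearest start site, in mm10. Of TFE3 with MSUc the labels hold only replicate 1. Syk was the member with most entries. It was named by 5 of 4756 gained DOT1L peaks, 4 of 4446 TFE3 peaks and 7 of 5667 TFEB peaks, and by 4 of 2081 H3K27ac and 5 of 1168 H3K4me3 regions gained. Gained DOT1L peaks named 2498 genes (10% of 24940), TFE3 peaks 2826 (11.3%), TFEB peaks 3209 (12.9%), H3K27ac regions 1175 (4.71%) and H3K4me3 regions 674 (2.7%). At least 5 DOT1L peaks were named for 172 genes, at least 4 TFE3 peaks for 169, and at least 5 TFEB peaks for 171. At least 4 H3K27ac regions were named for 112 genes and at least 5 H3K4me3 regions for 23. Several of the Syk regions of the same mark overlap one another, so they are fewer separate places than entries. No member was named in the reduced histone lists, of 1838 and 868 regions.

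Of the 5 DOT1L peaks at Syk 4 overlapped a TFEB peak by at least 1 base, and 1 of them, at chr13:52587846-52588070 in an intron, also overlapped a TFE3 peak, at chr13:52587851-52588061. Of the 4 TFE3 peaks 3 overlapped a TFEB peak. The share of all listed peaks that overlap in this way is not given here, so these counts are a description. A TFE3 peak at chr13:52602888-52603226 and a TFEB peak at chr13:52602880-52603115 lay within 2 overlapping H3K27ac regions (chr13:52602020-52604020 and chr13:52602428-52604428), for which the authors' deposited table gives log2 changes of 1.198 and 1.17. The first of them had signals of 187.63 and 176.39 with MSUc and 73.52, 70.26 and 85.53 with PBS, in tags scaled by the authors to a common total. Upstream of the listed start, the H3K4me3 region chr13:52579527-52581527 had 130.29 and 95.67 with MSUc and 24.32 and 35.07 with PBS, and the authors' deposited table gives a log2 change of 1.93 and an adjusted p of 2.88e-05. These regions were listed because they changed, so their values are a description.

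**Figure D5:**
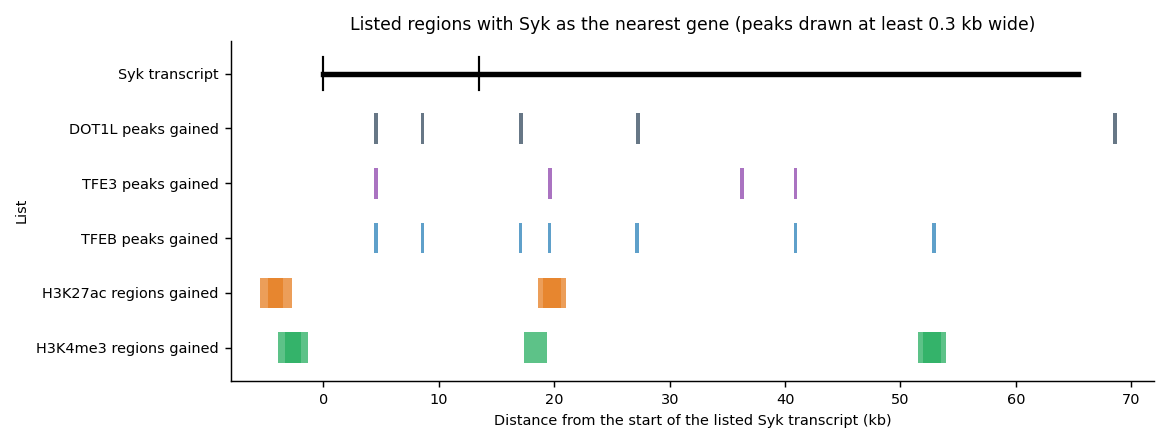
Listed peaks and regions with Syk as nearest gene (rows), by distance in kb from the start of the listed Syk transcript (x axis); the black line is the transcript and ticks mark the start sites used in the lists, the second 13445 bases after the first. DOT1L (5), TFE3 (4) and TFEB (7) peaks lie mostly within the transcript and often at the same places, and H3K27ac (4) and H3K4me3 (5) regions lie before the first start and inside the gene.

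Among the receptors, the promoter of Clec4e lay in a gained H3K27ac region (chr6:123288914-123290914, centred 43 bases before the start), with signals of 135.82 and 128.39 with MSUc and 49.46, 65.17 and 54.02 with PBS. The authors' deposited table gives it a log2 change of 1.18 and an adjusted p of 0.00541. The promoter sequence printed above lies inside that region. In an intron of Clec4d, a gained TFE3 peak (chr6:123265933-123266133) lay inside a gained H3K4me3 region (chr6:123265019-123267019) with signals of 274.53 and 233.08 with MSUc and 116.9 and 134.75 with PBS, to which the authors' deposited table gives a log2 change of 1.00. Clec5a was named by a gained DOT1L peak (chr6:40595252-40595638) and a gained TFEB peak (chr6:40595240-40595574) that share 323 bases upstream of the gene. Clec12a was named by a reduced DOT1L peak, chr6:129344477-129344695, at -5658 bases from its start. Clec4n, Clec7a and Card9 were named in none of the 8 lists.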

How the data were processed

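RNA sequencing covered 115 libraries of 8 experiments, from poly-A selected, strand-specific (dUTP) libraries per the labels' protocols. The authors deposited TPM, scaled by transcript length to a fixed total per library. The submitters' processing notes name STAR, HOMER and mm10, with no versions. Each table lists 1 transcript for each of 24940 genes, so that columns sum to 528079 to 569594, and a gene's value may miss its other transcripts. The tables were normalised separately, and tests were made within a table. At least 99.93% of the values in every library came out as whole reads within 0.15 read once length and scale were removed, which gave the depths. No 2 libraries of a group agreed within sampling noise (95 pairs, lowest chi-square per degree of freedom 2.49).

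Changes were fitted with limma 3.58.1 in R 4.3.3, with a mean-variance trend, on log2(TPM + 1) of genes with 1 TPM or more in a number of libraries equal to the size of the smallest group, with all groups of an experiment in the same fit and no block. A log2(TPM + 1) change understates that of low genes. The step was tested on simulated data. The alternatives were a pseudocount of 0.1, no filter, median-of-ratios scaling, the compared groups alone, the replicate number as a block, each library left out, TfebWT MSUc replicate 3 as PBS, no Tfe3KO library numbered 1, and, chosen after seeing the data, a crossed block in the time course. Replicate numbers were taken to pair libraries only for CPPD against PBS in Tfe3WT cells, where same-numbered libraries deviated together (r of 0.118 to 0.186 in 3 pairs). The labels do not state that pairing, and the values reported for this comparison come from the fit without a block. The block changed no call there. Similar values were found elsewhere and not used for pairing: 0.481 for MSUc against PBS at 10 min and 0.140 for Bhlhe40KO against WT with MSUc (2 pairs each). They were 0.100 to 0.136 for MSUc against PBS in the particle experiment and 0.0956 to 0.147 for metformin with PBS (3 pairs each).

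The text names all 8 genes in every comparison, up to 4 genes with the smallest adjusted p from each of 4 lists of related genes in 4 comparisons (5 h MSUc, CPPD, silica and alum), Fcer1g, Tyrobp, Bcl10 and Malt1, and the 2 genes outside the 8 most like each member. Of the genes this rule names, 1 is not reported here. The 8 genes, the lists and the tests were chosen with earlier results of these data known. Marker lists cover macrophages, neutrophils, stromal cells, dendritic cells, lymphocytes and mast cells. The last 3 lists summed to at most 41.1 TPM in any library.

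For ChIP-seq, per the file headers, the authors annotated peaks with HOMER on mm10. How the peaks were called is not given in the sources used here. Per the file headers, the histone signal is a tag count in a window of fixed width scaled by the authors to a fixed total of tags, and the log2 change and adjusted p-value of each region are the authors' own. How many replicates stand behind the peak lists is not given in the sources used here. 10 columns, 2 of expression and 8 of signal after LPS, matched no sample in the labels and were not used. Scripts ran in Python 3.11.15 with numpy 2.4.6 and pandas 2.3.3, and plots were drawn with matplotlib 3.10.9.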

Additional observations from a re-analysis of the deposited data

Results flagged for a closer look

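In the Ampka1 experiment the response to MSUc (MSUc minus PBS) differed between the libraries labelled Ampka1KO and Ampka1WT libraries for 7 of the 8 genes, by limma's test of the difference itself. The difference of the responses, Ampka1KO minus Ampka1WT on the log2 scale, was -3.07 for Clec5a, -2.07 for Clec4e, -1.74 for Syk, -1.61 for Clec4n, -1.34 for Clec4d, -1.25 for Clec12a and -1.23 for Clec7a. These libraries also differed in stromal and neutrophil markers, whose part was not tested.

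With metformin the response of Clec4e to MSUc differed from that of vehicle cells by -0.77 on the log2 scale. Clec4e was higher with metformin under PBS and was not called under MSUc, and the difference of the responses was called with all libraries, a call lost when 1 of 6 of them was left out, whichever of the 6 it was.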

How the results depend on the processing

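Of the 360 member changes recomputed under each setting, 359 kept direction and call with a pseudocount of 0.1, 350 with no filter, 341 with median-of-ratios scaling, 340 with the compared groups alone and 349 with the replicate block, which gained 7 calls and lost 4. Outside CPPD in Tfe3WT cells and the crossed block, replicate numbers were not taken to pair libraries. With 1 library left out, 2195 of 2296 kept both, 91 lost the call and 10 gained it. Leaving out the 4 Tfe3KO libraries numbered 1 changed none of 56. Among all of these 1 change reversed: Syk with alum against MSUc was -0.36 after scaling. The scaling moved the median of all genes by 0.13 to 0.28 for MSUc against PBS in control cells from 2 h on, by 0.31 for silica and by -0.45 for Ampka1KO against Ampka1WT with MSUc. Compared alone, the particle groups gave calls to Clec12a for MSUc (-0.21, adjusted p = 0.00482) and alum (-0.18, adjusted p = 0.0338). Where a call changed, the cause was not tested.

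The number of members called moved by over 1.5 times as follows. At 1 h it was 1, with 0 for the compared groups alone and 4 with the crossed block. That block gave 7 in place of 6 at 2 h and 8 in place of 7 at 5 h. Same-numbered libraries correlated by -0.552 to -0.417 between 30 min and 5 h, but by 0.481 at 10 min. For Tfe3KO against Tfe3WT with silica it was 1, with 0 after scaling, 0 for the groups alone and 2 with the replicate block, and with CPPD it was 0, with 1 under the block. For TfebTg against TfebWT with PBS it was 0, with 1 under the block. With TfebWT MSUc replicate 3 as PBS, it was 0 in place of 5 for MSUc against PBS in TfebWT cells and 0 in place of 2 for TfebTg against TfebWT with MSUc. For Bhlhe41KO against WT with PBS it was 0, with 1 after scaling. For SGC0946 against vehicle with PBS it was 2, with 1 at a pseudocount of 0.1, 1 with no filter, 1 after scaling, 0 under the block and 0 alone, and with MSUc it was 5, with 3 alone. For the metformin response it was 1, with 0 without the filter and 2 after scaling, and for metformin against vehicle with PBS it was 4, with 7 alone.

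With 1 library left out, the number of members called ran between 0 and 1 at 1 h, 4 and 6 at 2 h, 4 and 7 at 5 h, 4 and 6 for alum against PBS, 3 and 4 for CPPD against MSUc, 5 and 8 for silica against MSUc, 0 and 1 for Tfe3KO against Tfe3WT (PBS, MSUc and silica), 3 and 4 for MSUc in TfebWT cells, 0 and 1 for TfebTg against TfebWT with PBS, 0 and 0 for SGC0946 against vehicle with PBS and 0 and 1 for the metformin response. Where a group of 2 was left with 1 library, that library was assumed to vary like the other groups. The count stayed at 8 for Ampka1KO against Ampka1WT with MSUc and at 7 for their response.

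The following counts of all genes called moved by over 1.5 times. With the compared groups alone they were 0, 0, 56 and 1015 at 10 min, 30 min, 1 h and 2 h (7, 84, 405 and 4133 as reported), 0, 767 and 576 for Tfe3KO against Tfe3WT with PBS, MSUc and silica (303, 1372 and 1595), 33 and 189 for TfebTg with PBS and MSUc (86 and 417), 0 for Bhlhe41KO with PBS and with MSUc (335 and 161), and 0 and 1017 for SGC0946 with PBS and MSUc (83 and 2050). The responses of Tfe3KO cells gave 78, 37 and 9 for MSUc, CPPD and silica (221, 119 and 194). The crossed block gave 15, 144 and 1078 at 10 min, 30 min and 1 h. TfebWT MSUc replicate 3 as PBS gave 1 for MSUc in TfebWT cells (5455). No filter gave 167 for Bhlhe41KO with PBS, and the block 1 for SGC0946 with PBS. The remaining such shifts lay in comparisons with at most 16 genes called, or in TfebTg against TfebWT under that regrouping (8 with PBS and 36 with MSUc). In libraries of the lowest depth, Clec4n with 9 reads limits what its changes can show.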
